A study of Caenorhabditis elegans with 24 samples.

Results

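The response of wild-type Caenorhabditis elegans to 8 h without food was measured in 6 libraries, 3 of starved and 3 of fed N2 animals, out of 24 in the series. N2 is the laboratory wild-type strain, all animals were hermaphrodites, and each library was made from whole worms. Synchronized larvae of both groups had grown on OP50 bacteria to the middle of the fourth and last larval stage (L4). Starved animals were then washed 5 times in sterile M9 buffer and left on plates with no bacteria for 8 h, while fed animals were frozen at once. The starved animals were therefore also 8 h older and had been washed, and no fed group of their age was measured, so food, age and handling cannot be told apart anywhere below. The libraries were chosen by their labels alone, and the other 18 hold efk-1(ok3609) and zip-2(tm4248) mutants and libraries labelled cep-1(gk138), each fed and starved in the same way. The labels do not say whether the 3 libraries of a group came from separate cultures, so p-values measure the spread between these samples, which may be technical.

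A worm deprived of food is known to draw on fat stored mainly in its intestine, which lipases release from lipid droplets and lysosomes and which beta-oxidation then breaks down. Low insulin signalling releases the transcription factor DAF-16, and HLH-30 and the nuclear receptor NHR-49 turn on lysosomal, autophagy and fat-breakdown genes. The L4 stage is also when the worm builds its adult cuticle and when the hermaphrodite germ line turns from making sperm to making oocytes, so the stage itself is marked by large programmes of cuticle and germ-line expression.

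Across the genome, 15871 genes had enough reads to be tested, and 32.3% of them were called, meaning an adjusted p under 0.05 in edgeR's quasi-likelihood test. Of all genes tested, 15.9% were called higher after starvation (2523) and 16.4% were called lower (2609), and the median log2 fold change over all of them was 0.00 (-0.0003). Large changes were unevenly split, since 943 genes were called lower by at least 4-fold, against 480 called higher by at least 4-fold. At 16-fold or more the order turned, with 112 genes called higher and 71 called lower. Among the called genes, 2494 of those higher and 2518 of those lower had no overlap between the 3 starved and the 3 fed libraries, while 27.0% of all genes tested had every starved library above every fed one and 24.1% the reverse. The 62 gene lists used below held 2303 of the genes tested and 877 of the called genes, and 4255 called genes were in no list. Of the called genes, 2420 were known only by the name of the clone on which they lie.

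**Figure D1:**
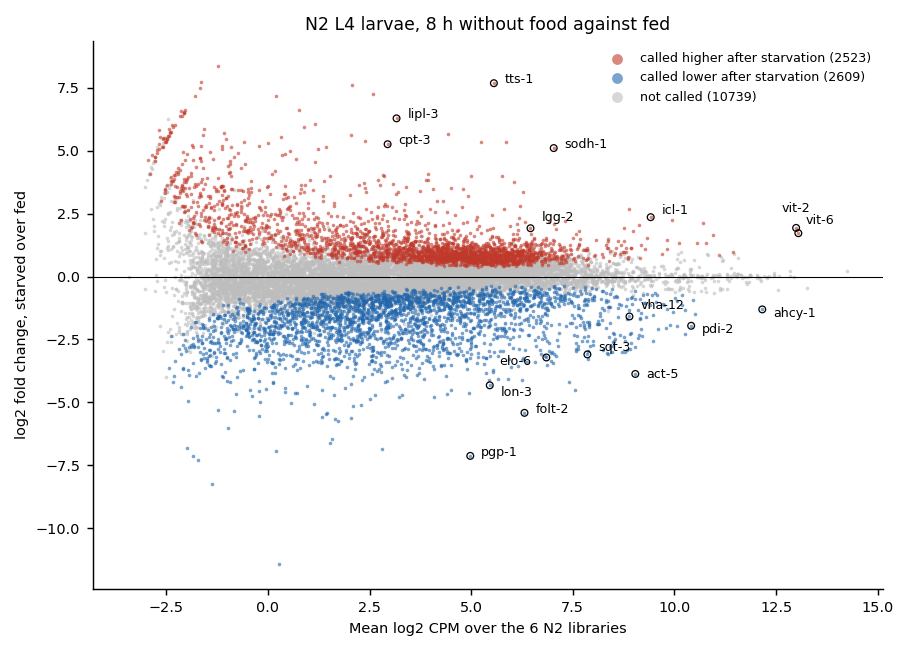
Each point is 1 of the 15871 genes tested, with its mean level over the 6 N2 libraries (log2 CPM) on the horizontal axis and its log2 fold change, starved over fed, on the vertical axis; red genes were called higher and blue genes lower after starvation. Called genes lie at every level, from the yolk proteins vit-2 and vit-6 at the right edge to genes near the detection limit, where fold changes spread most widely.

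Total counts per library ranged from 17677361 to 29638695 in starved and from 19550873 to 30266246 in fed N2, so depth did not separate the groups. Log2 CPM (CPM being counts scaled to a common library size) correlated across genes with r from 0.965 to 0.987 among starved and from 0.969 to 0.982 among fed libraries, against 0.870 to 0.947 between them. Starved replicate 2 lay farthest from fed libraries, and fed replicate 1 had the lowest r with the starved ones. Leaving out starved replicate 2 left 3075 genes called and leaving out fed replicate 1 left 3385. As a check of stage and sex, 6 of 10 male markers had enough reads to be tested and none was called (1 was called lower without fed replicate 2), with the 10 together at 0.000861, 0.000351 and 0.000877% of counts in starved and 0.000759, 0.000674 and 0.00109% in fed libraries. Early embryo markers summed to 0.000567, 0.000413 and 0.000412% of counts in starved libraries, against 0.000121, 0.000152 and 0.000179% in fed ones, with med-1 and hlh-28 at 0 in all 6 libraries and pes-10 at 0 in the 3 fed ones. Of the 4 embryo markers with enough reads to be tested, 3 were called higher and none lower, with a median of 1.82. The part of male or embryonic cells in any result below was not tested.

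Several enzymes that release stored fat were called higher. The largest change among lipases was in lipl-3, an acid lipase of intestinal lysosomes, which stood at 76.6, 114.6 and 44.6 CPM in starved and 0.955, 0.927 and 1.13 CPM in fed libraries. The lowest starved library was far above the highest fed one (78.1-fold, log2 fold change 6.29, SE 0.45, adjusted p 9.99e-09). Its relative lipl-2 had 6.81, 16.98 and 11.2 CPM in starved, against 0.402, 1.09 and 0.640 CPM in fed libraries (log2 fold change 3.98, SE 0.50, adjusted p 7.04e-06). The values for lipl-1 were 2.81, 2.03 and 7.20 CPM in starved and 0.553, 0.761 and 1.18 CPM in fed libraries (log2 fold change 2.29, SE 0.61, adjusted p 0.00754; 1.545 and not called without starved replicate 3). These were the 3 of 7 tested lysosomal lipases called higher (42.9%, against 15.9% of all genes), and none was called lower. The other 4 ranged in log2 fold change from -2.05 (lipl-6) to 0.62 (lipl-5), including lipl-4 at 0.42 (adjusted p 0.536). Of these, lipl-6 was called lower by DESeq2, with the 6 N2 libraries alone and without fed replicate 2 (-2.40), and stood at -1.26 without fed replicate 3. Lysosomal lipases summed to 0.0235, 0.0286 and 0.0209% of counts in starved and 0.0111, 0.0108 and 0.00904% in fed libraries, with no overlap. In the cytosol, atgl-1, the worm's adipose triglyceride lipase, rose to 72.8, 102 and 75.1 CPM after starvation, against 37.5, 30.4 and 35.5 CPM in fed animals (2.42-fold, log2 fold change 1.27, SE 0.24, adjusted p 0.000616). Its partner on lipid droplets, lid-1, was at 51.0, 70.1 and 46.1 CPM in starved and 26.7, 27.2 and 31.8 CPM in fed libraries (log2 fold change 0.96, SE 0.24, adjusted p 0.00533). These were the 2 called of the 3 cytosolic lipolysis genes.

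Genes of fatty acid breakdown were called in both directions. Of 42 genes tested, 9 were called higher (21.4%, against 15.9% of all genes) and 12 lower (28.6%, against 16.4%), with a median of -0.26. The carnitine palmitoyltransferases, which carry fatty acids into mitochondria, were themselves split. The level of cpt-3 was 40.5, 67.5 and 34.6 CPM in starved, against 1.01, 1.52 and 1.13 CPM in fed libraries (38.3-fold, log2 fold change 5.26, SE 1.02, adjusted p 0.000753). Starved libraries held 329, 474 and 328 CPM of cpt-1, against 119.7, 99.4 and 107 CPM in fed ones (log2 fold change 1.79, SE 0.26, adjusted p 4.44e-05), and cpt-5 was also called higher (log2 fold change 1.59). The cpt-5 call ended with no expression filter or without any one library other than starved replicate 2 (1.17 to 1.90). The groups did not overlap for any of these, while 27.0% of all genes tested had every starved library above every fed one. The opposite direction held for cpt-4, at 3.02, 2.03 and 3.89 CPM in starved and 21.0, 13.7 and 18.3 CPM in fed libraries (log2 fold change -2.55, SE 0.50, adjusted p 0.000861). Peroxisomal steps included acox-3, an acyl-CoA oxidase family member, with 90.1, 60.4 and 95.8 CPM after starvation and 13.3, 14.96 and 19.0 CPM in fed animals (log2 fold change 2.38, SE 0.28, adjusted p 3.04e-06), and maoc-1 (log2 fold change 1.33, called). Called lower were the acyl-CoA dehydrogenase acdh-2 (log2 fold change -3.69, and -4.43 without starved replicate 3), the enoyl-CoA hydratase ech-7 (-2.35), the thiolase kat-1 (-0.94) and the oxidases acox-1.2, acox-1.3 and acox-1.4 (-1.23, -1.16 and -1.97). The acox-1.2 call ended without starved replicate 2 (-1.09) or fed replicate 3 (-0.83). Acyl-CoA synthetases, which activate fatty acids, were called higher in 7 of 21 cases (33.3%) and lower in 2 (9.52%), and the 7 fell to 4 without starved replicate 2 or without fed replicate 2. Their largest change was in acs-7, with 90.2, 61.8 and 90.1 CPM in starved, against 3.07, 8.37 and 9.65 CPM in fed libraries (11.4-fold, log2 fold change 3.52, SE 0.34, adjusted p 3.45e-07), followed by acs-17 (log2 fold change 1.85) and acs-22 (1.28). The widely used fasting reporter acs-2 was not called, and its libraries overlapped, at 51.7, 122 and 42.3 CPM in starved and 62.4, 79.3 and 47.1 CPM in fed animals (log2 fold change 0.19, SE 0.45, adjusted p 0.772).

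In fatty acid synthesis the called elongases were lower, and the called desaturases were higher except for fat-7. All 7 called elongases of the 9 tested were lower, namely elo-2, elo-3, elo-4, elo-5, elo-6, elo-7 and elo-9. The elo-3 call ended without starved replicate 1 (-0.71) and the elo-7 call without starved replicate 2 (-0.98). The level of elo-5, which makes branched-chain fatty acids that larval growth requires, was 26.4, 24.3 and 26.7 CPM in starved and 187, 280.2 and 348 CPM in fed libraries (10.5-fold lower, log2 fold change -3.40, SE 0.29, adjusted p 8.45e-08). In the same pathway elo-6 was at 35.8, 44.0 and 35.1 CPM in starved, against 303, 298 and 467 CPM in fed animals (log2 fold change -3.22, SE 0.23, adjusted p 1.03e-08). Counts for elo-2 came to 34.1, 37.4 and 40.3 CPM in starved and 256, 191 and 309 CPM in fed libraries (log2 fold change -2.76, SE 0.24, adjusted p 1.15e-07). In each of the 3 the highest starved library lay several-fold below the lowest fed one. The rule that named genes from lists required no overlap, and 24.1% of all genes tested had every starved library below every fed one. Among desaturases, fat-3 had 288, 403 and 350.1 CPM after starvation and 64.3, 58.0 and 101 CPM in fed animals (4.66-fold, log2 fold change 2.22, SE 0.25, adjusted p 1.54e-06). The figures for fat-2 were 1431, 1404 and 1135 CPM in starved and 629, 578 and 640.1 CPM in fed libraries (log2 fold change 1.104, SE 0.18, adjusted p 0.000147). Also called higher were fat-1 (log2 fold change 0.78), fat-4 (0.81) and fat-5 (1.40), and each of these calls ended without starved replicate 2 (0.66, 0.54 and 1.19) or without fed replicate 2 (0.70, 0.66 and 1.27). The fat-4 call ended also without fed replicate 1 (0.73) and with the 6 N2 libraries alone. The stearoyl-CoA desaturase fat-7, a gene that needs NHR-49 and MDT-15, went the other way at 77.4, 59.9 and 70.0 CPM in starved, against 134, 100.1 and 238 CPM in fed libraries (log2 fold change -1.19, SE 0.32, adjusted p 0.00813). That call ended without fed replicate 3 (-0.76). Its close relative fat-6 was not called (474, 818 and 465 CPM in starved and 372, 302 and 371 CPM in fed animals, adjusted p 0.106). Over the whole list of 21, 6 were called higher (28.6%, against 15.9% of all genes) and 9 lower (42.9%, against 16.4%). The 6 fell to 3 without starved replicate 2 or without fed replicate 2. Called with the elongases and fat-7 among the lower genes was fasn-1, the fatty acid synthase (log2 fold change -0.74, adjusted p 0.0247), which lost its call without starved replicate 1 (-0.62), starved replicate 2 (-0.77), fed replicate 1 (-0.58) or fed replicate 3 (-0.68). The acetyl-CoA carboxylase pod-2 and the lipogenic factor sbp-1 were not called (log2 fold changes 0.02 and -0.15). Of the 8 lipid-binding proteins tested, which shuttle fatty acids, lbp-8 had the largest change, at 0.256, 0.135 and 0.340 CPM in starved and 17.1, 34.8 and 26.9 CPM in fed libraries (log2 fold change -6.62, SE 0.65, adjusted p 3.86e-07). The opposite direction held for lbp-1, at 144, 174 and 70.3 CPM in starved and 33.6, 32.3 and 30.5 CPM in fed libraries (log2 fold change 2.01, SE 0.44, adjusted p 0.00196).

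Of the 62 lists, the yolk proteins had the largest shift in share of all counts. The 6 vitellogenins, lipoproteins that the intestine makes for oocytes, took 3.14, 3.86 and 3.61% of counts in starved libraries, against 0.632, 1.30 and 1.43% in fed ones, and the groups did not overlap. Within the family vit-2 was at 13192, 22159.8 and 13783 CPM in starved and 2982, 4951 and 4935 CPM in fed animals (3.82-fold, log2 fold change 1.93, SE 0.55, adjusted p 0.0112). The level of vit-6 was 13722, 18414 and 14845 CPM in starved and 3272, 5526 and 5439 CPM in fed libraries (log2 fold change 1.72, SE 0.52, adjusted p 0.0162). Starved libraries also held more vit-5, at 2301, 5221 and 3714 CPM in starved and 381, 1002 and 1196 CPM in fed libraries (log2 fold change 2.12, SE 0.67, adjusted p 0.0196). For vit-1 the order was the reverse, at 47.3, 39.2 and 130.1 CPM in starved and 131, 281 and 409 CPM in fed libraries (log2 fold change -1.92, SE 0.62, adjusted p 0.022), and vit-4 was called lower with it (-1.90). The vit-4 call ended with no expression filter and without starved replicate 1 (-1.56), starved replicate 2 (-1.655), fed replicate 2 (-1.87) or fed replicate 3 (-1.495), and the value was -2.75 without starved replicate 3. Replicate 1 was the lowest of the fed libraries for all 4 genes whose values are given. The calls for vit-2, vit-5 and vit-6 ended without that library (log2 fold changes 1.73, 1.77 and 1.51) or without starved replicate 2 (1.65, 1.80 and 1.59). The vit-1 call ended without starved replicate 1 (-1.69), starved replicate 2 (-1.63) or fed replicate 3 (-1.51), and without starved replicate 3 the value was -2.66. Reads of near-identical copies, vit-3, vit-4 and vit-5 in particular, could have been divided between genes in the authors' estimation of counts.

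The glyoxylate and sugar-store genes changed at a few points. The bifunctional glyoxylate enzyme icl-1, which lets the worm make carbohydrate from fat, stood at 1364, 2340.0 and 1092 CPM in starved, against 388, 269.5 and 277 CPM in fed libraries (5.13-fold, log2 fold change 2.36, SE 0.37, adjusted p 0.000107). Every starved library was above every fed one, as for 27.0% of all genes tested. Of the other 4 gluconeogenesis genes, pck-1 was called lower (log2 fold change -0.91, SE 0.33, adjusted p 0.0373; not called without any one of starved replicates 1, 2 and 3 or fed replicates 1 and 3, at -0.84, -1.05, -0.85, -0.75 and -0.96). Neither pck-2 nor fbp-1 was called (log2 fold changes 0.79 and -0.50). Trehalose synthesis gene tps-1 rose to 23.5, 35.0 and 22.9 CPM in starved, against 9.96, 12.4 and 14.8 CPM in fed animals (log2 fold change 1.13, SE 0.22, adjusted p 0.000906). The paired glycogenins, which prime glycogen, moved apart: gyg-2 was at 339, 453 and 249 CPM in starved and 129, 129 and 110.0 CPM in fed libraries (log2 fold change 1.4997, SE 0.41, adjusted p 0.00867). The values for gyg-1 were 59.9, 47.9 and 65.4 CPM in starved and 173, 136 and 137 CPM in fed libraries (log2 fold change -1.36, SE 0.20, adjusted p 4.05e-05). Glycogen synthase gsy-1 and phosphorylase pygl-1 were not called (log2 fold changes 0.39 and 0.43). In glycolysis 2 of 19 genes were called higher (10.5%, against 15.9% of all genes) and 3 lower (15.8%, against 16.4%). The 2 became 1 without any one library other than starved replicate 3. The largest called change there was in ldh-1, the lactate dehydrogenase, at 67.7, 72.5 and 64.8 CPM after starvation and 233, 179 and 179 CPM in fed animals (2.88-fold lower, log2 fold change -1.53, SE 0.23, adjusted p 6.28e-05). In the tricarboxylic acid cycle 6 of 20 were called lower (30%, against 16.4% of all genes) and none higher. The 6 became 3 without fed replicate 1. Among them the isocitrate dehydrogenase idh-1 was at 414, 463 and 386 CPM in starved and 859, 882 and 898 CPM in fed libraries (log2 fold change -1.06, SE 0.21, adjusted p 0.000964).

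Genes of amino acid breakdown were lower through nearly the whole list. Of 16 genes tested, 13 were called lower (81.2%, against 16.4% of all genes), none was called higher, and all 16 log2 fold changes were negative, with a median of -1.0. Summed, they took 0.110, 0.111 and 0.122% of counts in starved and 0.199, 0.212 and 0.241% in fed libraries. Tyrosine breakdown was covered from its first step to its last. The tyrosine aminotransferase tatn-1 was at 74.8, 96.0 and 114.6 CPM in starved, against 394, 311 and 309 CPM in fed libraries (3.55-fold lower, log2 fold change -1.83, SE 0.27, adjusted p 5.61e-05). It was followed along the pathway by hpd-1 (log2 fold change -0.94), hgo-1 (-1.73), gst-42 (-1.79) and fah-1 (-1.50), all called. The hpd-1 call ended without starved replicate 1 (-0.79) or fed replicate 3 (-0.80). Tryptophan enters the kynurenine pathway through tdo-2, which fell to 27.1, 18.7 and 28.9 CPM in starved, against 78.0, 96.2 and 132 CPM in fed animals (log2 fold change -2.03, SE 0.34, adjusted p 0.000181), with kynu-1 (-1.06) and haao-1 (-1.23) also called lower. The haao-1 call ended without starved replicate 1 (-1.21), starved replicate 2 (-1.07), fed replicate 2 (-0.98) or fed replicate 3 (-1.09). Subunits of the branched-chain keto acid dehydrogenase, bckd-1A, bckd-1B and dbt-1, were called lower as well (log2 fold changes -0.78, -1.08 and -0.76). The bckd-1A call ended without starved replicate 1 (-0.72), starved replicate 3 (-0.72) or fed replicate 1 (-0.66).

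Propionate, which arises from those amino acids and from odd-chain fats, has 2 known routes of disposal in the worm, and its called genes belong to one of them. The 4 called members of the list of 11 were acdh-1, ech-6, hach-1 and hphd-1, which belong to the shunt used when vitamin B12 is scarce. The other 7 members were not called. They include a gene that is not among the 6 of the B12-dependent route given below, and its value is not given here. The level of acdh-1 was 509, 329.5 and 497 CPM in starved and 1752, 1741 and 1993 CPM in fed libraries (4.11-fold lower, log2 fold change -2.04, SE 0.30, adjusted p 5.61e-05). That of hphd-1 was 117, 162 and 173 CPM in starved and 953, 840.1 and 873 CPM in fed libraries (5.90-fold lower, log2 fold change -2.56, SE 0.27, adjusted p 9.68e-07). For ech-6 the values were 212, 254 and 294 CPM in starved and 1357, 1250.4 and 1177 CPM in fed libraries (log2 fold change -2.32, SE 0.23, adjusted p 4.74e-07). The remaining called member, hach-1, was at 112, 153 and 167 CPM in starved and 563, 547 and 504 CPM in fed animals (log2 fold change -1.90, SE 0.24, adjusted p 8.16e-06). None of the 4 overlapped between groups, while 24.1% of all genes tested had every starved library below every fed one. The 6 genes of the B12-dependent route, pcca-1, pccb-1, mce-1, mmcm-1, mmaa-1 and mmab-1, had log2 fold changes from -0.26 (pcca-1) to 0.34 (mmcm-1) and were not called. A test of the difference between the routes was not run.

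The methionine cycle and the making of phosphatidylcholine, which uses its methyl groups, were called lower at 10 of 18 genes (55.6%, against 16.4% of all genes) and higher at 1 (5.56%, against 15.9%). The S-adenosylhomocysteine hydrolase ahcy-1 was at 2393, 3621 and 2835 CPM in starved, against 8957, 6140.1 and 6798 CPM in fed libraries (log2 fold change -1.31, SE 0.28, adjusted p 0.00186). Its share of all counts was 0.289 ± 0.0299% in starved and 0.696 ± 0.0784% in fed animals (SD, n = 3 each). The synthetase of the methyl donor, sams-1, fell to 282, 206 and 285 CPM in starved, against 611, 538 and 669 CPM in fed libraries (log2 fold change -1.23, SE 0.23, adjusted p 0.000596). The pathway from choline was lower at pcyt-1, with 9.01, 7.64 and 8.43 CPM in starved and 22.5, 29.9 and 42.6 CPM in fed animals (log2 fold change -1.92, SE 0.25, adjusted p 8.48e-06), and at cept-1 (log2 fold change -1.61). Of the pair of methyltransferases on the other route, pmt-2 was called lower (-1.09) and pmt-1 higher (1.09), and the pmt-1 call ended without starved replicate 2 (0.72) or fed replicate 2 (0.98).

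Most autophagy genes rose, and genes of the proton pump of lysosomes fell. Of 25 autophagy genes, 15 were called higher (60%, against 15.9% of all genes), none lower, and all 25 log2 fold changes were positive, with a median of 0.96. The count was 10 without starved replicate 2. Both worm homologues of the membrane-bound autophagosome protein Atg8 were among them. The larger fold was in lgg-2, at 158, 202 and 155 CPM in starved and 50.5, 45.2 and 40.5 CPM in fed libraries (3.78-fold, log2 fold change 1.92, SE 0.21, adjusted p 1.21e-06). Counts for lgg-1 came to 544, 423 and 506 CPM in starved and 222, 222 and 176 CPM in fed libraries (log2 fold change 1.25, SE 0.17, adjusted p 2.14e-05). The starting kinase unc-51 stood at 91.0, 106 and 92.2 CPM after starvation and 61.4, 41.2 and 46.4 CPM in fed animals (log2 fold change 0.96, SE 0.21, adjusted p 0.00223). The membrane protein atg-9 was at 34.1, 46.5 and 39.4 CPM in starved and 14.5, 14.03 and 15.8 CPM in fed libraries (log2 fold change 1.43, SE 0.29, adjusted p 0.00103). Part of the complex that lipidates Atg8, atg-16.2 was at 19.1, 27.9 and 18.6 CPM in starved and 4.73, 7.78 and 9.50 CPM in fed libraries (log2 fold change 1.57, SE 0.25, adjusted p 9.6e-05). Starved libraries lay above fed ones for all 5, as they did for 20 of the 25 listed and 27.0% of all genes tested. The cargo receptor sqst-1 and the beclin bec-1 were not called (log2 fold changes 0.41 and 0.31), although sqst-1 was called without fed replicate 1 (0.70).

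The vacuolar ATPase is the multi-subunit pump that acidifies lysosomes and energises other membranes. Of its 21 subunit genes, 17 were called lower (81%, against 16.4% of all genes) and 1 higher. The median log2 fold change of the pump was -0.99. Its genes summed to 0.343, 0.335 and 0.394% of counts in starved and 0.656, 0.631 and 0.741% in fed libraries, with no overlap. Among them vha-12 was at 262, 263 and 300.0 CPM in starved, against 958, 716 and 809 CPM in fed ones (3.01-fold lower, log2 fold change -1.59, SE 0.24, adjusted p 5.64e-05). The figures for vha-11 were 112, 108 and 131 CPM in starved and 348, 308 and 348 CPM in fed libraries (log2 fold change -1.51, SE 0.18, adjusted p 3.69e-06). The 1 subunit called higher was vha-7, with 47.8, 47.6 and 48.8 CPM in starved and 20.9, 34.1 and 33.1 CPM in fed libraries (log2 fold change 0.71, SE 0.22, adjusted p 0.0201). That call ended without starved replicate 2 (0.71) or fed replicate 1 (0.52). Lysosomal cathepsin-type proteases were called lower in 10 of 23 cases (43.5%) and higher in 2, and the 2 became 1 without starved replicate 1, starved replicate 2, fed replicate 2 or fed replicate 3. The 10 became 5 without starved replicate 1 and 6 without starved replicate 2. They included the aspartyl protease asp-12, at 32.0, 26.4 and 57.7 CPM in starved and 165, 172 and 246 CPM in fed libraries (log2 fold change -2.32, SE 0.40, adjusted p 0.000262). The cathepsin B relative cpr-1 was at 1219, 1809 and 1488 CPM in starved and 637, 415 and 597 CPM in fed libraries (log2 fold change 1.45, SE 0.39, adjusted p 0.00835). The cathepsin L gene cpl-1 was not called (-0.01). None of the 33 proteasome subunit genes was called by edgeR, and their median was 0.01.

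Among core genes of insulin, TOR and AMP-activated kinase signalling, calls were higher with 1 exception. Of 28 tested, 13 were called higher (46.4%, against 15.9% of all genes), 1 was called lower, and 25 had a positive log2 fold change, with a median of 0.59. The insulin receptor daf-2 was at 19.7, 26.4 and 29.8 CPM in starved, against 4.02, 8.11 and 10.1 CPM in fed libraries (3.41-fold, log2 fold change 1.77, SE 0.46, adjusted p 0.00725). The catalytic phosphoinositide kinase subunit age-1 was at 68.5, 91.8 and 63.1 CPM after starvation and 31.4, 34.5 and 36.9 CPM in fed animals (log2 fold change 1.12, SE 0.23, adjusted p 0.00139). Higher too were its regulatory partner aap-1 (log2 fold change 0.98) and the kinase akt-1 (0.84). The phosphatase daf-18, which opposes age-1, was at 145, 132 and 130.3 CPM in starved and 28.8, 76.3 and 55.2 CPM in fed libraries (log2 fold change 1.34, SE 0.37, adjusted p 0.0102). Genes that pass the signal on and a gene that ends it were thus both higher, and the daf-18 call ended without fed replicate 1 (1.04). That fed library held the lowest daf-2, daf-18 and akt-1 of the 6. In the AMP-activated kinase, the largest fold was in the gamma subunit aakg-4, at 18.4, 14.7 and 19.3 CPM in starved and 1.21, 3.34 and 3.10 CPM in fed libraries (6.79-fold, log2 fold change 2.76, SE 0.32, adjusted p 2.24e-06). Another gamma subunit, aakg-2, was the 1 gene called lower, at 12.2, 8.66 and 12.5 CPM in starved and 17.6, 18.2 and 19.0 CPM in fed libraries (log2 fold change -0.71, SE 0.18, adjusted p 0.00528). The aakg-2 call ended with the replicate number as a block in the 6 N2 libraries. Of the catalytic subunits aak-2 was called (0.60, adjusted p 0.0109; not with the 6 N2 libraries alone nor without fed replicate 2, at 0.45) and aak-1 was not (0.41, adjusted p 0.0568). TOR kinase itself, let-363, and its partner daf-15 were not called (log2 fold changes 0.36 and 0.53), while rict-1, of the other TOR complex, was (log2 fold change 1.05, SE 0.22, adjusted p 0.00136).

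Transcription factors with known roles in fasting were called higher in 12 of 28 cases (42.9%) and lower in 2 (7.14%), with a median of 0.37. Those 12 became 6 without starved replicate 2 and 7 without fed replicate 1 or fed replicate 2. The lysosome and autophagy regulator hlh-30 was at 80.6, 80.2 and 91.7 CPM in starved and 55.0, 37.4 and 41.3 CPM in fed libraries (log2 fold change 0.92, SE 0.18, adjusted p 0.000693). Its groups did not overlap, nor did those of the fat-metabolism receptor nhr-49, at 90.8, 90.8 and 103 CPM in starved and 50.8, 57.6 and 59.4 CPM in fed libraries (log2 fold change 0.76, SE 0.16, adjusted p 0.00147). The Mad-like gene mdl-1 was at 124, 162 and 136 CPM in starved and 79.9, 44.4 and 65.1 CPM in fed libraries (log2 fold change 1.16, SE 0.31, adjusted p 0.00775), also with no overlap. The rule that named genes from lists required no overlap, and 27.0% of all genes tested had every starved library above every fed one. The level of daf-16, the insulin-regulated FOXO factor, was 98.3, 112 and 106 CPM after starvation and 60.2, 44.0 and 58.6 CPM in fed animals (log2 fold change 0.96, SE 0.27, adjusted p 0.0118; not called without fed replicate 2, at 0.83). Called lower were klf-3, a fat-regulating zinc-finger factor, at 11.5, 10.5 and 13.3 CPM in starved and 24.04, 23.8 and 21.95 CPM in fed libraries (log2 fold change -0.98, SE 0.20, adjusted p 0.0014), and the unfolded-protein factor xbp-1 (-0.52). The xbp-1 call ended with no expression filter, with the 6 N2 libraries alone and without any one library other than fed replicate 3 (-0.53 to -0.42). The lipase repressor mxl-3, the gut factor elt-2 and pha-4 were not called (log2 fold changes -0.17, -0.12 and -0.12). Over the 197 nuclear hormone receptor genes tested, 30 were called higher (15.2%, against 15.9% of all genes) and 16 lower (8.12%, against 16.4%), and the 16 became 9 without starved replicate 2 and 8 without fed replicate 3. Among them nhr-114, a receptor tied to the methionine cycle and diet, fell to 56.7, 51.1 and 60.1 CPM in starved, against 240.1, 183 and 240.0 CPM in fed animals (3.95-fold lower, log2 fold change -1.98, SE 0.22, adjusted p 1.47e-06).

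Peptide hormones carry the fed state between tissues. Of 29 insulin-like peptide genes tested, 5 were called higher (17.2%, against 15.9% of all genes) and 7 lower (24.1%, against 16.4%), and the 5 became 3 without starved replicate 3 or fed replicate 1. The receptor agonists daf-28 and ins-6 were among the lower ones. Of these daf-28 was at 3.27, 2.50 and 2.69 CPM in starved, against 11.5, 8.47 and 6.45 CPM in fed libraries (log2 fold change -1.64, SE 0.30, adjusted p 0.000413). The level of ins-6 was 1.59, 1.15 and 1.45 CPM in starved and 4.37, 3.41 and 2.81 CPM in fed libraries (log2 fold change -1.33, SE 0.26, adjusted p 0.000925). Another agonist, ins-7, was at 3.27, 2.50 and 4.14 CPM after starvation and 1.01, 1.59 and 2.12 CPM in fed animals (log2 fold change 1.08, SE 0.33, adjusted p 0.0176; not called without starved replicate 3, at 0.88, or fed replicate 1, at 0.85). Of 101 neuropeptide genes of the flp and nlp families, 8 were called higher (7.92%) and 4 lower (3.96%), both below the shares over all genes. The 8 became 2 without starved replicate 1, 4 without starved replicate 2, 5 without fed replicate 1 or fed replicate 2, and 3 without fed replicate 3. In steroid hormone synthesis the oxygenase daf-36, which starts the making of dafachronic acid, was at 3.07, 1.62 and 2.50 CPM in starved and 5.48, 17.3 and 14.9 CPM in fed libraries (5.20-fold lower, log2 fold change -2.38, SE 0.43, adjusted p 0.000412). The later step daf-9 and the receptor daf-12 were not called (log2 fold changes -0.69 and 0.23).

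Genes reported elsewhere as DAF-16 targets were called higher in 7 of 11 cases (63.6%, against 15.9% of all genes) and lower in none (against 16.4%). Their summed share was 0.411, 0.439 and 0.292% of counts in starved and 0.0888, 0.0844 and 0.0736% in fed libraries. Much of it was sip-1, a small heat shock protein of germ cells and embryos, at 2369, 2764 and 1453 CPM in starved, against 574, 476 and 345 CPM in fed animals (log2 fold change 2.24, SE 0.45, adjusted p 0.00109). The metallothionein mtl-1 was at 12.7, 19.95 and 6.36 CPM in starved and 0.251, 0.0662 and 0.345 CPM in fed libraries (61.1-fold, log2 fold change 5.93, SE 0.80, adjusted p 1.59e-05). The ferritin ftn-1, which stores iron, was at 11.2, 6.09 and 15.3 CPM after starvation and 2.51, 1.09 and 2.85 CPM in fed animals (log2 fold change 2.35, SE 0.46, adjusted p 0.000878). The small heat shock protein hsp-12.6 was at 2.35, 1.96 and 4.14 CPM in starved and 0.402, 0.199 and 0.295 CPM in fed libraries (log2 fold change 3.27, SE 0.37, adjusted p 2.05e-06). Members of the same list that are often used as reporters were not called, namely sod-3 at 2.51, 2.23 and 1.45 CPM in starved and 3.12, 2.15 and 1.67 CPM in fed libraries (adjusted p 0.779), hsp-16.2 (log2 fold change -0.39), lys-7 (-0.24) and mtl-2 (0.24). The 3 catalases were called higher among 17 antioxidant genes. Peroxisomal ctl-2 was at 322, 385 and 329.5 CPM in starved, against 117, 95.2 and 106 CPM in fed libraries (3.25-fold, log2 fold change 1.70, SE 0.21, adjusted p 5.64e-06), and the log2 fold changes of ctl-1 and ctl-3 were 1.70 and 1.33. The 3 lie side by side in similar sequence, so their reads may be shared. The other gene called higher in the list was sod-4 (0.57), whose call ended with no expression filter, with the 6 N2 libraries alone and without starved replicate 1 (0.53) or fed replicate 2 (0.49). None of the 17 was called lower, and 1 was without fed replicate 1.

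The chaperones called lower were mostly those of the secretory pathway. Of 28 tested, 7 were called lower (25%, against 16.4% of all genes) and none higher. The 7 were the disulfide isomerases pdi-2, pdi-3 and pdi-6, the ER Hsp70 genes hsp-3 and hsp-4, the ER co-chaperone dnj-7, and hsp-60 of mitochondria. The level of pdi-2, which is also a subunit of the enzyme that hydroxylates collagen, was 624, 736 and 742 CPM in starved and 3481, 1959.9 and 2729 CPM in fed libraries (3.88-fold lower, log2 fold change -1.96, SE 0.25, adjusted p 8.2e-06). Its partner in that enzyme, dpy-18, a gene outside the lists that was chosen after its values were seen, was at 37.3, 20.8 and 25.7 CPM in starved and 293, 125 and 196 CPM in fed libraries (log2 fold change -2.87, SE 0.32, adjusted p 1.84e-06). The BiP homologue hsp-3 fell to 312, 381 and 413 CPM in starved, against 1438, 879 and 1034 CPM in fed animals (log2 fold change -1.60, SE 0.24, adjusted p 6.31e-05). None of the 8 chaperonin genes cct-1 to cct-8 was called, nor were hsp-1, hsp-6 and hsp-90 (log2 fold changes -0.17, -0.14 and 0.09).

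Few genes of the machinery of protein synthesis and of mitochondria were called, set beside 32.3% of all genes tested. Among 79 cytosolic ribosomal protein genes 1 was called, lower, and they took 16.18, 18.5 and 14.9% of counts in starved and 17.9, 15.5 and 14.6% in fed libraries, which overlapped. Of 23 ribosome biogenesis genes 1 was called (higher), of 31 tRNA synthetase genes 1 (higher), of 66 mitochondrial ribosome genes 2 (lower), and of 32 nuclear respiratory chain genes 4 (lower). The 4 respiratory chain calls became 1 without fed replicate 1. The 2 mitochondrial ribosome calls became 1 without fed replicate 1 or fed replicate 3, and 0 without starved replicate 1, starved replicate 3 or fed replicate 2 and with no expression filter. The single calls of the ribosomal protein, ribosome biogenesis and tRNA synthetase lists all ended without starved replicate 2 or fed replicate 1. That of the ribosomal proteins ended also without starved replicate 1 or fed replicate 2, and that of ribosome biogenesis without fed replicate 3. Among 31 translation factors, the 1 called higher was efk-1, the kinase that slows elongation by acting on elongation factor eEF2. Its level was 73.0, 104 and 81.4 CPM in starved, against 29.6, 36.8 and 38.4 CPM in fed libraries (2.47-fold, log2 fold change 1.30, SE 0.19, adjusted p 5.03e-05). Its substrate eef-2 was not called (6472, 10868 and 6954 CPM in starved and 8439, 5839 and 6458 CPM in fed animals, adjusted p 0.609). The 5 called lower were eef-1A.2, ife-2, ife-4, eif-1.A and eif-3.L, and eif-1.A and eif-3.L were not called without fed replicate 1 (-0.50 and -0.45). The eif-1.A call ended also without starved replicate 1 (-0.53) or starved replicate 3 (-0.52), and the eif-3.L call without starved replicate 2 (-0.47) or fed replicate 3 (-0.41) and with the 6 N2 libraries alone. The elongation factor gene eef-1A.2 was at 547, 688 and 506 CPM in starved and 1812, 1198 and 1283 CPM in fed libraries (log2 fold change -1.30, SE 0.26, adjusted p 0.000995). The cap-binding ife-2 was at 19.4, 26.9 and 18.2 CPM in starved and 51.1, 37.4 and 42.3 CPM in fed libraries (log2 fold change -1.02, SE 0.25, adjusted p 0.00442).

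**Figure D2:**
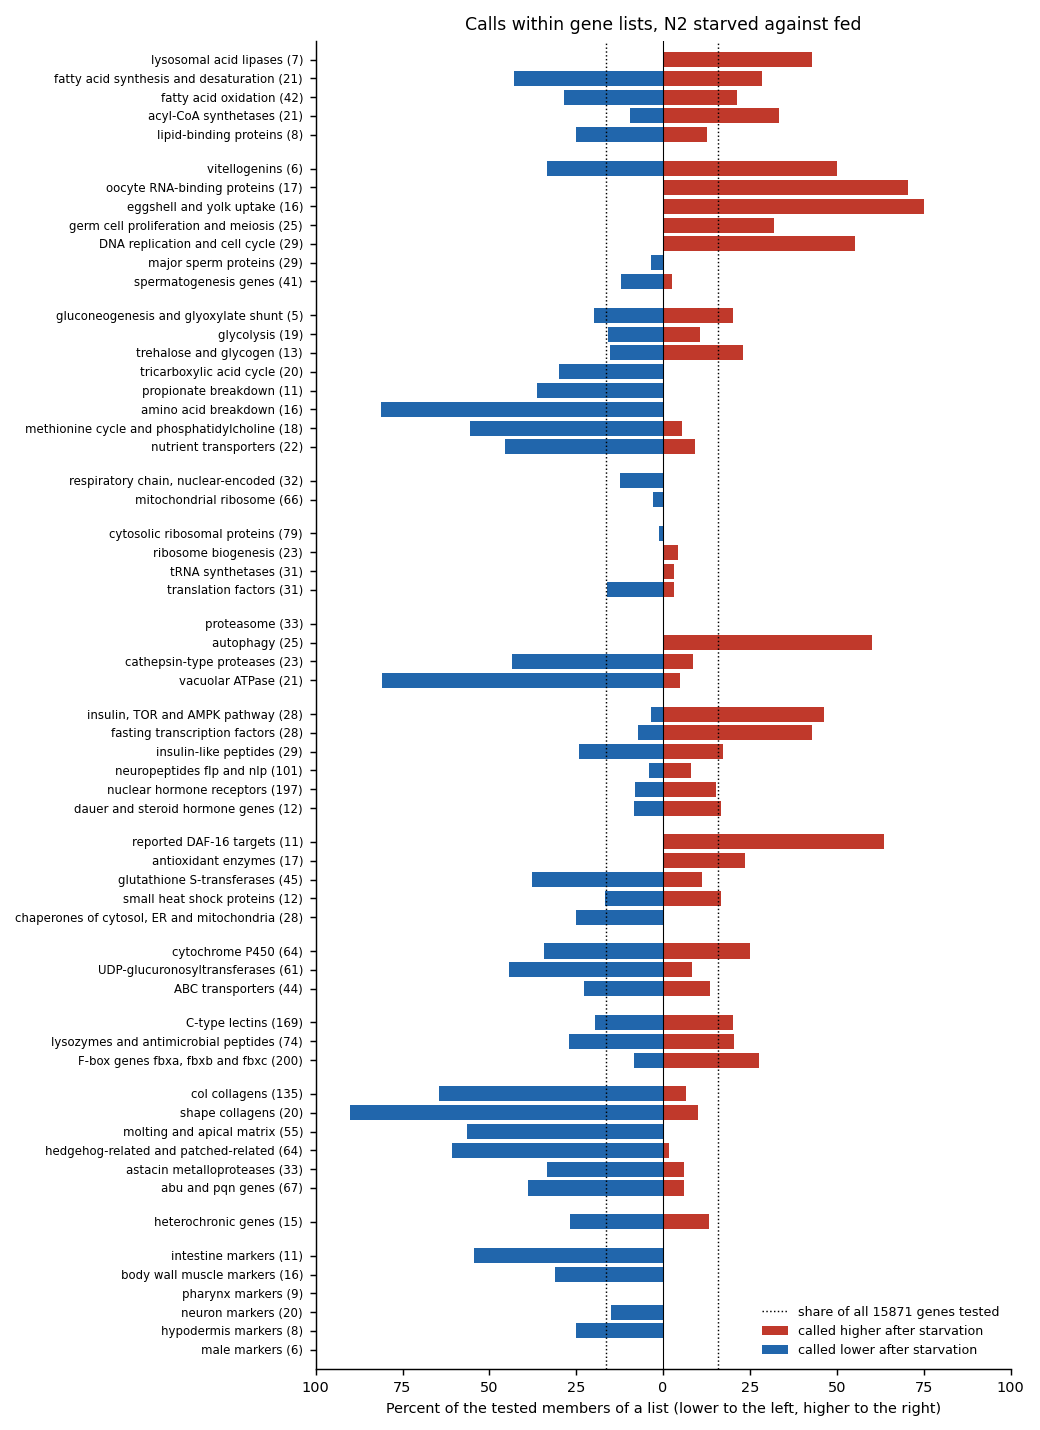
Bars give, for each gene list with 5 or more tested members (number in parentheses), the percent called lower after starvation (blue, to the left) and higher (red, to the right), and the dotted lines mark the shares over all 15871 genes, 16.4% and 15.9%. Shape collagens (90% lower), amino acid breakdown (81.2%) and vacuolar ATPase (81%) reach far to the left, eggshell (75% higher), oocyte (70.6%) and autophagy genes (60%) to the right, and ribosomal protein and proteasome genes hardly leave the centre line.

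**Figure D3:**
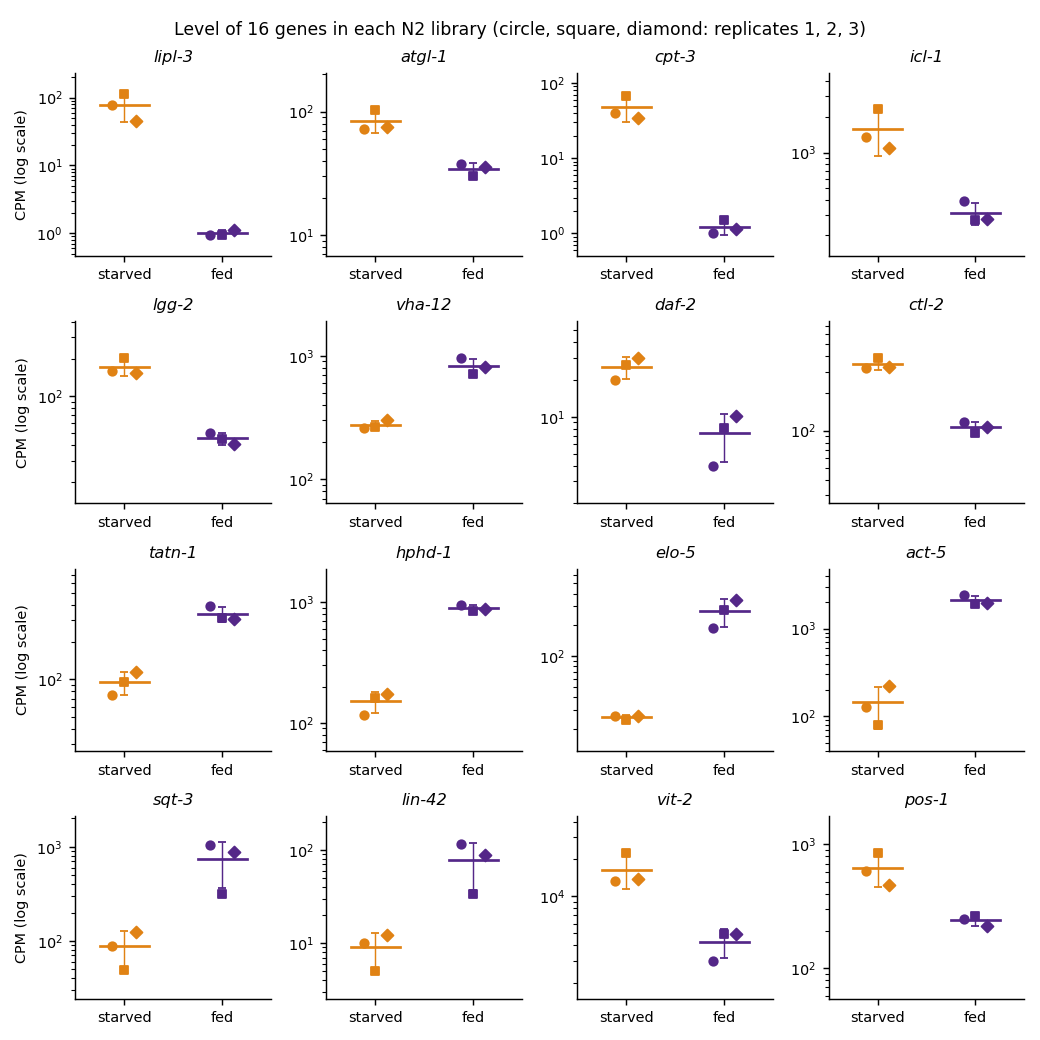
Level in CPM, on a log axis, of 16 genes in each starved (orange) and fed (purple) library, with a circle, square and diamond for replicates 1, 2 and 3, and a line and bar for the mean and SD of 3 libraries. Starved and fed libraries do not overlap in any panel, but the rule that named genes from lists required this. Over all genes tested, 27.0% had every starved library above every fed one and 24.1% the reverse. Starved replicate 2 is the lowest starved library for act-5, sqt-3 and lin-42 and the highest for lipl-3, vit-2 and pos-1.

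Genes of nutrient uptake and of the absorbing surface of the gut were called lower in part. Among 22 nutrient transporter genes 10 were called lower (45.5%) and 2 higher. The oligopeptide transporter of the gut, pept-1, was at 47.6, 27.0 and 69.3 CPM in starved and 83.0, 134 and 153 CPM in fed libraries (log2 fold change -1.36, SE 0.42, adjusted p 0.0179). It was not called without starved replicate 1 (-1.35), starved replicate 2 (-1.08) or fed replicate 3 (-1.18). The sugar transporter family moved apart, with swt-7 at 31.8, 35.5 and 32.4 CPM in starved, against 130.2, 123 and 105 CPM in fed animals (log2 fold change -1.85, SE 0.29, adjusted p 0.000113). The values for swt-1 were 27.0, 38.8 and 39.2 CPM in starved and 11.1, 6.78 and 8.47 CPM in fed libraries (log2 fold change 1.996, SE 0.34, adjusted p 0.000197). The folate transporter folt-2 had one of the largest changes of all genes, at 12.1, 6.97 and 18.7 CPM in starved and 537, 642 and 447 CPM in fed libraries (42.8-fold lower, log2 fold change -5.42, SE 0.35, adjusted p 3.63e-09). The intestinal actin act-5, which forms the cores of microvilli, was at 128, 79.8 and 223 CPM in starved and 2434, 1932 and 1952 CPM in fed libraries (14.7-fold lower, log2 fold change -3.87, SE 0.36, adjusted p 2.07e-07). Other brush-border and cytoskeletal genes of the intestine were called lower with smaller folds, namely ifd-2 (-2.04), ifc-2 (-0.78), eps-8 (-0.68) and erm-1 (-0.51). The ifc-2 call ended without starved replicate 1, starved replicate 2, fed replicate 1 or fed replicate 2 (-0.77 to -0.62), and the eps-8 call without starved replicate 2 (-0.57) or fed replicate 1 (-0.61). The erm-1 call ended with no expression filter, with the 6 N2 libraries alone and without starved replicate 1, starved replicate 2, fed replicate 2 or fed replicate 3 (-0.49 to -0.47). They made up 6 of 11 intestine markers together with act-5 and pept-1, a count that became 2 without starved replicate 2 and 3 without starved replicate 1. The intestinal regulators elt-2 and elt-7 and the esterase ges-1 were not called (log2 fold changes -0.12, 0.28 and -0.42). In whole animals, fewer cells of a type and less RNA in each cell cannot be told apart, here and for the tissues below. Body wall muscle markers were called lower in 5 of 16 cases (31.2%, against 16.4% of all genes) and higher in none, and the 5 became 3 without starved replicate 2. Of these unc-52, the basement membrane perlecan, was at 171, 102 and 248 CPM in starved and 590.1, 441 and 526 CPM in fed libraries (log2 fold change -1.58, SE 0.29, adjusted p 0.000536). The troponin T gene mup-2 was called lower (-1.12) and the main myosin unc-54 was not called (0.02). None of 9 pharynx markers was called, and 1 was called lower without fed replicate 3. Of 20 neuron markers 3 were called lower (15%), a count that became 1 without any one library other than starved replicate 3. Of 8 hypodermis markers 2 were called lower (25%), a count that became 0 without starved replicate 2 or fed replicate 1 and 1 without starved replicate 1 or fed replicate 3.

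Detoxification genes were strongly affected in single members and lower more often than higher. Of 61 UDP-glucuronosyltransferase genes, which attach sugar to toxins, 27 were called lower (44.3%) and 5 higher, with a median of -1.02, and the 5 became 3 without fed replicate 2. The most changed was ugt-16, at 0.768, 0.135 and 1.88 CPM in starved and 20.1, 36.1 and 48.4 CPM in fed libraries (log2 fold change -5.09, SE 0.65, adjusted p 8.73e-06; -6.17 without starved replicate 3). Another large change was in ugt-62, which was at 11.2, 10.3 and 24.5 CPM in starved and 204, 217 and 353 CPM in fed libraries (log2 fold change -4.06, SE 0.40, adjusted p 3.58e-07). Of 64 cytochrome P450 genes 16 were called higher (25%, against 15.9% of all genes) and 22 lower (34.4%, against 16.4%), and the 16 became 9 without fed replicate 1. Lower ones included cyp-35A2, at 4.40, 3.65 and 6.61 CPM after starvation and 34.0, 34.2 and 81.7 CPM in fed animals (log2 fold change -3.34, SE 0.47, adjusted p 2.7e-05). Counts for cyp-13A5 came to 4.76, 3.58 and 6.06 CPM in starved and 96.2, 139.6 and 91.3 CPM in fed libraries (log2 fold change -4.49, SE 0.66, adjusted p 4.94e-05). On the higher side cyp-32B1 was at 23.7, 42.0 and 20.5 CPM in starved and 1.41, 1.65 and 2.21 CPM in fed libraries (16.3-fold higher, log2 fold change 4.02, SE 0.44, adjusted p 1.21e-06). Glutathione S-transferases were called lower in 17 of 45 cases (37.8%) and higher in 5 (11.1%), and the count of 17 was stable within 1.5 times on leaving out any library. The 5 became 0 without starved replicate 1, 1 without fed replicate 2, 2 without fed replicate 1, and 3 without starved replicate 2, starved replicate 3 or fed replicate 3. The example with the largest called change, gst-10, was at 6.91, 5.68 and 7.72 CPM in starved and 87.4, 80.1 and 63.0 CPM in fed libraries (log2 fold change -3.50, SE 0.37, adjusted p 8.99e-07). Among the exporters, pgp-1, a P-glycoprotein, had the largest fall of any gene named here, at 2.46, 2.097 and 3.34 CPM in starved and 445, 366 and 311 CPM in fed libraries (140.1-fold lower, log2 fold change -7.13, SE 0.66, adjusted p 2.01e-07).

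Families linked to immunity held called genes in both directions. C-type lectins, secreted proteins that bind sugars, were called higher in 34 (20.1%, against 15.9% of all genes) and lower in 33 (19.5%, against 16.4%) of 169 cases. In one direction was clec-7, at 36.1, 33.01 and 44.0 CPM in starved and 1.66, 3.08 and 4.73 CPM in fed libraries (log2 fold change 3.58, SE 0.28, adjusted p 2.57e-08). In the other was clec-57, at 1.74, 0.879 and 3.09 CPM in starved and 18.2, 45.4 and 40.5 CPM in fed libraries (log2 fold change -4.13, SE 0.61, adjusted p 4.69e-05). Lysozymes and antimicrobial peptides were called higher in 15 (20.3%) and lower in 20 (27.0%) of 74. Among the lower ones lys-2 was at 13.8, 7.78 and 15.8 CPM after starvation and 219.9, 206 and 212 CPM in fed animals (16.99-fold lower, log2 fold change -4.09, SE 0.39, adjusted p 2.83e-07). The thaumatin-family gene thn-2 was at 219, 436 and 489 CPM in starved and 7.79, 9.10 and 10.9 CPM in fed libraries (41.1-fold higher, log2 fold change 5.36, SE 0.57, adjusted p 8.44e-07). F-box genes of the fbxa, fbxb and fbxc families, many of unknown role, were called higher in 55 of 200 cases (27.5%) and lower in 17 (8.5%). The 55 became 23 without fed replicate 1, 27 without starved replicate 2, 29 without starved replicate 1 and 36 without fed replicate 3. The 17 became 7 without fed replicate 2, 8 without starved replicate 1 or starved replicate 2 and 9 without fed replicate 3.

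Among genes that build the cuticle, nearly all shape collagens and many members of the other lists were called lower. Of the 20 collagens known by the body shapes of their mutants, 18 were called lower (90%, against 16.4% of all genes) and 2 higher. The median was -3.04, and the 20 took 0.129, 0.0282 and 0.179% of counts in starved and 1.04, 0.474 and 0.883% in fed libraries. The collagen sqt-3 was at 87.9, 48.6 and 126 CPM in starved, against 1054, 313 and 876 CPM in fed animals (8.55-fold lower, log2 fold change -3.10, SE 0.53, adjusted p 0.000248). The figures for lon-3 were 14.9, 2.37 and 18.8 CPM in starved and 315, 103 and 314 CPM in fed libraries (20.04-fold lower, log2 fold change -4.32, SE 0.81, adjusted p 0.000547). In both, replicate 2 was the lowest library of the starved group and also of the fed group. The pair called higher were dpy-17, at 12.59, 9.33 and 5.25 CPM after starvation and 2.46, 2.38 and 2.81 CPM in fed animals (log2 fold change 1.82, SE 0.48, adjusted p 0.00774), and dpy-14. The level of dpy-14 was 7.27, 3.25 and 1.70 CPM in starved and 0.402, 0.364 and 0.492 CPM in fed libraries (log2 fold change 3.26, SE 0.85, adjusted p 0.00692; 2.525 without starved replicate 1). The numbered col genes were called lower in 87 of 135 cases (64.4%) and higher in 9 (6.67%), with a median of -1.94. One of the 9 was col-95, at 175, 346 and 155 CPM in starved and 10.7, 14.4 and 17.5 CPM in fed libraries (log2 fold change 3.99, SE 0.64, adjusted p 0.00011). Collagens share long similar stretches, so reads may have been divided between copies. Beyond collagens, 31 of 55 genes of molting and the apical matrix were called lower (56.4%) and none higher (1 without starved replicate 3), with a median of -1.60. The protease inhibitor mlt-11 was at 13.7, 4.53 and 11.8 CPM in starved, against 111, 26.5 and 117 CPM in fed libraries (log2 fold change -3.07, SE 0.66, adjusted p 0.00175). The zona pellucida protein noah-1 was at 9.47, 4.40 and 8.25 CPM in starved and 71.6, 16.98 and 88.9 CPM in fed libraries (log2 fold change -2.99, SE 0.66, adjusted p 0.00202). Hedgehog-related and patched-related genes, many of them secreted by the epidermis around molts, were called lower in 39 of 64 cases (60.9%) and higher in 1, a count that became 0 without fed replicate 1 and 2 without starved replicate 3 or fed replicate 3. Of these wrt-10 was at 9.21, 3.79 and 5.65 CPM in starved and 70.2, 19.6 and 66.4 CPM in fed libraries (log2 fold change -3.06, SE 0.64, adjusted p 0.00141). Astacin metalloproteases were called higher in 2 and lower in 11 of 33 cases (33.3%), and the 11 became 4 without starved replicate 2, 6 without fed replicate 1 and 7 without starved replicate 1. The abu and pqn genes were called higher in 4 and lower in 26 of 67 cases (38.8%), and the 26 became 7, 8 and 17 in the same order.

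Regulators of larval timing were called in both directions. Of 15 tested, 4 were called lower (26.7%, against 16.4% of all genes) and 2 higher (13.3%, against 15.9%). The period homologue lin-42, whose transcript cycles once per molt, was at 10.03, 5.07 and 12.2 CPM in starved and 114.9, 33.6 and 87.3 CPM in fed libraries (8.57-fold lower, log2 fold change -3.10, SE 0.49, adjusted p 9.69e-05). The adult-switch factor lin-29 was at 5.37, 3.52 and 5.90 CPM in starved and 12.5, 8.41 and 11.4 CPM in fed libraries (log2 fold change -1.12, SE 0.35, adjusted p 0.0187; not called without starved replicate 2, at -0.93, or fed replicate 1, at -0.998). Its cofactor mab-10 was also called lower (-0.77), a call that ended with the 6 N2 libraries alone and without starved replicate 1 (-0.72), starved replicate 2 (-0.71), fed replicate 1 (-0.73) or fed replicate 3 (-0.54). The entry named let-7 was the fourth of 15 called lower and had at most 1.38 CPM in any library. The molting-cycle receptors nhr-23 and nhr-25 were not called (log2 fold changes -0.00 and -0.60). Called higher were lin-28 (0.66) and lin-41 (1.17), and neither was called without starved replicate 2 (0.63 and 1.07). The lin-28 call also ended without fed replicate 1 (0.59), and the lin-41 call without fed replicate 2 (1.12) or fed replicate 3 (1.14). The 4 lower calls became 2 without starved replicate 2 or fed replicate 1.

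Of the germ-line lists, those of oocytes and the eggshell held mostly genes called higher, and those of sperm held few called genes. Oocyte RNA-binding proteins, which hold maternal messages silent, were called higher in 12 of 17 cases (70.6%, against 15.9% of all genes). None was called lower, and all 17 log2 fold changes were positive, with a median of 1.11. They took 0.855, 0.913 and 0.791% of counts in starved libraries and 0.432, 0.470 and 0.428% in fed ones, with no overlap. The number of calls depended on single libraries, as the 12 became 0 without starved replicate 2, 1 without fed replicate 3, 3 without fed replicate 1, 4 without fed replicate 2 and 7 without starved replicate 1. The zinc-finger protein gene pos-1 was at 608, 847 and 469.6 CPM after starvation and 248, 264 and 218 CPM in fed animals (2.64-fold, log2 fold change 1.40, SE 0.41, adjusted p 0.0133; 1.15 and not called without starved replicate 2). Eggshell and yolk-uptake genes were called higher in 12 of 16 cases (75%), with none lower and a median of 1.26, and the 12 became 5 without starved replicate 2, 6 without fed replicate 3 and 7 without fed replicate 1. The chitin synthase chs-1, which lays the eggshell, was at 120.1, 171 and 110.0 CPM in starved and 36.8, 58.6 and 59.2 CPM in fed libraries (log2 fold change 1.37, SE 0.36, adjusted p 0.00695). The oocyte caveolin cav-1 was at 32.5, 28.5 and 13.5 CPM in starved and 1.51, 1.56 and 2.17 CPM in fed libraries (14.2-fold, log2 fold change 3.83, SE 0.72, adjusted p 0.000602). The yolk receptor rme-2 was not called, although it was with the 6 N2 libraries alone (406, 733 and 393 CPM in starved and 276, 248 and 233 CPM in fed animals, adjusted p 0.0968).

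Genes of DNA replication and the cell cycle were called higher in 16 of 29 cases (55.2%, against 15.9% of all genes). None was called lower, the median was 0.84, and the log2 fold change was positive in all 29. The 16 became 2 without fed replicate 1, 5 without starved replicate 2 and 10 without fed replicate 3. The replication helicase subunit mcm-3 was at 204, 265 and 176 CPM in starved, against 98.9, 114.6 and 99.3 CPM in fed libraries (log2 fold change 1.04, SE 0.30, adjusted p 0.0129; not called without starved replicate 2, at 0.87). The licensing factor cdt-1 was at 17.3, 16.6 and 15.8 CPM in starved and 3.62, 8.74 and 8.42 CPM in fed libraries (log2 fold change 1.25, SE 0.36, adjusted p 0.012; not called without fed replicate 1, at 0.95). Germ cell proliferation and meiosis genes were called higher in 8 of 25 cases (32%, against 15.9% of all genes). The 8 became 2 without starved replicate 2 or fed replicate 3, 3 without fed replicate 1 and 4 without starved replicate 1. Among these, the meiotic break factor dsb-2 was at 32.6, 31.2 and 25.4 CPM after starvation and 14.4, 18.4 and 13.1 CPM in fed animals (log2 fold change 0.95, SE 0.22, adjusted p 0.00313). Of 29 major sperm protein genes, 1 was called lower (3.45%, against 16.4% of all genes) and none higher. The 1 call ended without starved replicate 1 or fed replicate 1. Their share was 0.452, 0.472 and 0.535% of counts in starved and 0.534, 0.601 and 0.394% in fed libraries, which overlapped. Other spermatogenesis genes were called lower in 5 of 41 cases (12.2%, against 16.4% of all genes) and higher in 1 (2.44%, against 15.9%). The 1 became 2 without fed replicate 2. The 5 became 1 without starved replicate 1 or starved replicate 2, 2 without any one fed replicate and 8 without starved replicate 3.

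**Figure D4:**
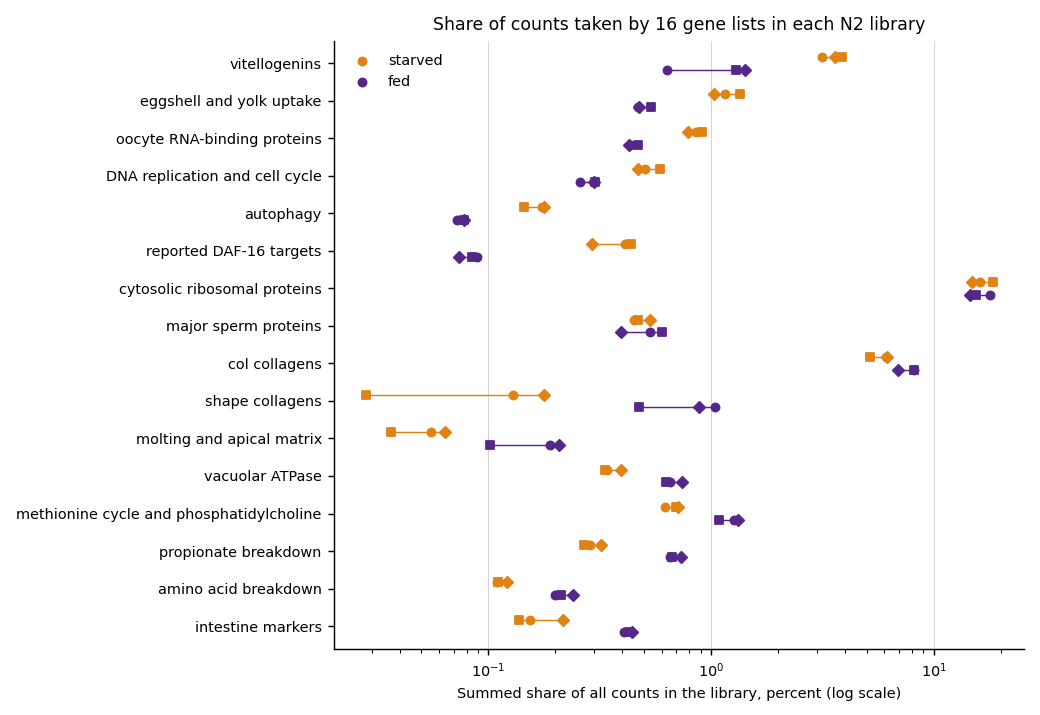
Summed share of all counts taken by 16 gene lists in each starved (orange) and fed (purple) library, in percent on a log axis, with a circle, square and diamond for replicates 1, 2 and 3 and a line over their range. Groups overlap for ribosomal proteins and major sperm proteins and for no other list shown, and the shape collagen and molting lists have their lowest share in replicate 2 of each group.

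Beyond the lists, several genes with large changes have known enzymes or structures in their products and others only a clone name. The alcohol dehydrogenase sodh-1 was at 732, 1280.3 and 437 CPM in starved, against 18.5, 19.7 and 33.03 CPM in fed libraries (34.4-fold, log2 fold change 5.11, SE 0.51, adjusted p 4.74e-07). The secreted SCP-family gene scl-2 was at 212, 293 and 222 CPM in starved and 5.88, 4.24 and 7.78 CPM in fed libraries (40.7-fold, log2 fold change 5.35, SE 0.48, adjusted p 1.31e-07). Without an assigned function here, C50F7.5 was at 138, 76.6 and 285 CPM after starvation and 2.97, 2.08 and 4.73 CPM in fed animals (log2 fold change 5.68, SE 0.57, adjusted p 4.74e-07; 5.05 without starved replicate 3). Likewise ZC395.5 was at 28.6, 47.3 and 22.5 CPM in starved and 0.805, 0.728 and 0.788 CPM in fed libraries (log2 fold change 5.40, SE 0.51, adjusted p 2.83e-07). The level of F43C11.7 was 61.4, 82.4 and 49.8 CPM in starved and 2.67, 4.997 and 3.64 CPM in fed libraries (log2 fold change 4.09, SE 0.27, adjusted p 3.63e-09). On the lower side, ZK6.11 was at 35.1, 25.1 and 62.3 CPM in starved and 901, 915 and 957 CPM in fed libraries (22.6-fold lower, log2 fold change -4.50, SE 0.30, adjusted p 3.63e-09). The values for R193.2 were 4.196, 0.947 and 5.28 CPM in starved and 92.5, 98.7 and 107 CPM in fed libraries (log2 fold change -4.79, SE 0.47, adjusted p 3.58e-07). Lower too was Y94H6A.10, at 4.35, 2.71 and 5.68 CPM in starved and 96.3, 139 and 97.1 CPM in fed libraries (log2 fold change -4.69, SE 0.52, adjusted p 1.48e-06). In none of these 8 did a starved library fall within the range of the fed ones, which the rule that named them required.

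By position in the genome, a larger share of genes was called lower on the X chromosome than on the autosomes. Of 2064 genes tested on X, 26.4% were called lower and 11.3% higher, while of 13014 on autosomes 14.8% were lower and 16.8% higher. The median log2 fold change was -0.33 on X and 0.05 on autosomes. With every member of the 62 lists left out, 24.9% of the remaining X genes and 13.6% of the autosomal ones were called lower. Across the alternative settings the share called lower ranged from 17.8 to 29.2% on X and from 9.47 to 16.8% on autosomes, and it was the higher on X in each. The share called higher on autosomes ranged from 8.79 to 17.9%, and it was below the share called lower there in some of them, for example without fed replicate 1 (8.79% higher, 11.5% lower). The 234 X genes called higher became 150 without fed replicate 1. Among autosomes the share called lower ran from 12.1% on chromosomes I and III to 18.1% on V. In the mutant libraries, which share no animals with those of N2, the median log2 fold change was -0.23 on X and 0.06 on autosomes. These are counts over genes and were not tested. Known lower genes on X included pdi-2, pdi-6, vha-12, tatn-1 and mup-2, described above, and X also carries the rising genes tts-1, vit-2 and aakg-4.

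**Figure D5:**
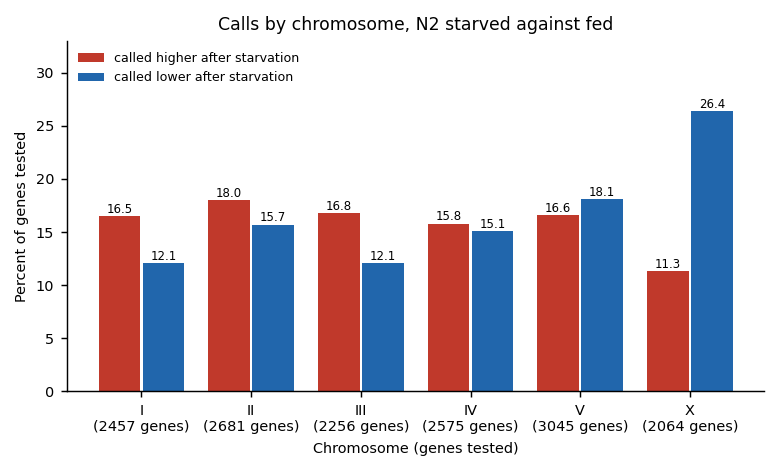
Percent of the genes tested on each chromosome that were called higher (red) or lower (blue) after starvation, with the number of genes tested under each name and the percent above each bar. Chromosome X has the tallest lower bar (26.4%) and the shortest higher bar (11.3%).

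The response of N2 was set beside the mean response of the other strains, measured in 18 other libraries. Of the 2523 genes called higher in N2, 2521 had a positive mean log2 fold change in the other strains and 2309 were called there too. Of the 2609 called lower, 2595 had a negative mean and 2466 were called. The mean response rests on 3 times as many libraries and called 9021 genes. Both sets of calls came from the same fit and share its estimate of spread, so they are not fully independent. Across genes, which are not independent replicates, log2 fold changes of N2 and of the mean correlated with r = 0.925. The difference between the N2 response and the mean of the others was called for 0 genes by edgeR and for 0 by DESeq2, with 405 and 472 genes at an unadjusted p under 0.05. Values for the genes above were close in several cases, with lipl-3 at 6.29 in N2 and 6.82 in the mean of the others, elo-5 at -3.40 in N2 and -3.40 in the others, and lgg-2 at 1.92 in N2 and 2.06 in the others. For daf-2 the values were 1.77 in N2 and 0.96 in the others, for daf-18 1.34 in N2 and 0.66 in the others, and for act-5 -3.87 in N2 and -2.97 in the others. The reporter acs-2, not called in N2 (0.19), was at 1.03 in the mean of the others and called there (adjusted p 0.0024 by edgeR). F45D11.14, one of the 15 genes with the largest rises named in N2, was at 3.99 in N2 and 8.70 in the others. These differences were not called.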

How the data were processed

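RNA from whole worms was sequenced in strand-specific libraries with 75-base reads, per the labels' protocols. The authors deposited estimated counts per gene, not scaled to depth, in 1 table for all 24 libraries. Trimmomatic 0.36, Salmon 0.9.1, edgeR and the build WBcel235 are named in the submitters' processing notes, and their settings and the summing of transcripts to genes are not given in the sources used here. Of the deposited nonzero values, 9% were not whole, and all were rounded. Salmon divides reads between similar sequences by estimation, so values of near-identical family members and overlapping genes are uncertain.

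Samples were grouped by their titles. All 24 libraries entered 1 fit with a mean for each of 8 groups (edgeR 4.0.16 in R 4.3.3: filterByExpr with a minimum count of 10 and a minimum total of 15, TMM scaling, robust quasi-likelihood F test). P-values were adjusted by Benjamini and Hochberg over all genes tested, and a gene was called at an adjusted p under 0.05. CPM are the rounded counts scaled to TMM-adjusted library size, and log2 fold changes are starved minus fed, from the fit, with the standard error taken from the fold change and its F statistic. Mean levels in log2 CPM used a prior count of 2. Summed shares of lists are percent of a library's total counts, with no scaling. Total counts per library, given in the report, set the counting error, and intervals for it were not computed.

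Genes were named by a rule. It took the 15 called genes each way with the largest log2 fold change, a mean log2 CPM of at least 2 over the N2 libraries and no overlap between groups. It also took, in each list, the 3 such members in the list's main direction and the 1 with the largest change in the other, and a fixed set of well-known starvation genes. To complete pathways, 103 genes outside the rule were added after their values were seen, and the alternatives were run on them too. The members and the 62 lists were chosen with earlier results of these data known. Lists are described by counts of called members, with no test of the list. Alternatives were no expression filter, RLE scaling, DESeq2 1.42.0, the 6 N2 libraries alone, a replicate block, and leaving out each library in turn. The count of calls by chromosome used the Ensembl annotation of WBcel235, in which 15078 of the genes tested were found by name. The fitting steps were tested on simulated data. Promoter sequence was not analysed here.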

Additional observations from a re-analysis of the deposited data

How the results depend on the processing

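Of the 5132 genes called (2523 higher and 2609 lower), the count was 4471 with no expression filter, 5062 with RLE scaling, 5626 with DESeq2 and 4515 with the 6 N2 libraries alone, all within 1.5 times. Leaving out 1 N2 library gave 3075 to 4919 genes called, 1354 to 2380 higher and 1691 to 2539 lower. The drop was beyond 1.5 times without starved replicate 2 (3075 called, 1384 higher, 1691 lower) and without fed replicate 1 (3385 called, 1354 higher), and 3014 and 3287 of these were among the 5132. Of the 241 genes taken by the naming rule and tested, 177 kept their side of the threshold in every alternative and 64 changed side in at least 1. Of the 213 called among them, 0 changed sign, while 10 of those not called did, acs-2 and hsp-16.2 among them. Of 103 genes added to the text after their values were seen, 77 were called, 33 changed side in at least 1 alternative and 0 of the 77 changed sign. Without starved replicate 2, 42 and 20 of these genes lost their call, and without fed replicate 1, 41 and 15 did. Same-numbered starved and fed libraries did not deviate together (correlations of -0.07, -0.09 and 0.11 across genes), so the numbers were not taken as pairs. With the replicate number as a block in the 6 N2 libraries, 3820 genes were called (1714 higher and 2106 lower), and 3591 of them were among the 5132. On autosomes the share called higher was then below the share called lower (12.2% and 13%), the aakg-2 call ended and rme-2 was called. The difference between the N2 response and the mean of the mutant responses was called for 0 genes in each of the alternatives run, with 279 to 714 genes at an unadjusted p under 0.05, and with the replicate block within strain for 0 genes, with 636 at an unadjusted p under 0.05. With 3 libraries a group, a missed call at low counts does not show that a gene was unaffected.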

Other observations

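Within the numbered collagens, most of which were called lower, the most abundant member called higher was col-181, at 0.389 ± 0.0361% of counts in starved and 0.196 ± 0.0515% in fed libraries (SD, n = 3 each; log2 fold change 0.98, adjusted p 0.0478 by edgeR). Next was col-119, at 0.350 ± 0.0572% in starved and 0.112 ± 0.0362% in fed libraries (log2 fold change 1.64, adjusted p 0.00996). Among the lower ones col-117 was at 0.0651 ± 0.0405% in starved and 0.282 ± 0.0954% in fed libraries (log2 fold change -2.28, adjusted p 0.00375). The col-119 call ended without fed replicate 1 (1.46). The col-181 call ended with no expression filter, with RLE scaling and without any one library other than starved replicate 3 (0.81 to 1.16). These 3 were chosen after their values were seen.

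Along the chromosomes, 16 stretches held at least 5 neighbouring tested genes with the same call (Ensembl annotation of WBcel235). The longest, of 6 genes, lies on chromosome V from 2131473 to 2212118 and held F22F7.7, C45H4.14, cyp-33C2, nhr-13, cyp-32B1 and nhr-133, all called higher. On chromosome V from 722646 to 764596, icl-1 lies between fbxb-72 and the genes srh-2, srp-1 and srp-2, and all 5 were called higher. Stretches of genes called lower included the cytochrome P450 genes cyp-13A4 to cyp-13A8 on chromosome II from 9795756 to 9807569. They also included the collagens col-167 to col-170 with C03B1.13 on chromosome X from 6323488 to 6338051. The calls of F22F7.7, cyp-33C2, nhr-133, fbxb-72, srp-1, srp-2, cyp-13A6 and C03B1.13 each ended without at least 1 library. Some of these neighbours are similar in sequence, and their reads may have been divided between them. Of 31 small nucleolar RNA genes tested, 7 were called lower (22.6%, against 16.4% of all genes) and 1 higher (3.23%, against 15.9%).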
